A study of Rattus norvegicus with 24 samples.

Results

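The early response to methotrexate beyond that to a saline injection was read from 4 of the 24 arrays of the study. These were the 2 arrays titled as methotrexate at 1 hour (MTX) and the 2 titled as placebo at 1 hour (PLA), and they were chosen from the titles alone. Each array held RNA of peripheral blood mononuclear cells of a separate female Wistar rat. All 4 rats had collagen-induced arthritis (CIA), induced with bovine type II collagen in adjuvant, and ether was the anaesthetic at sampling in both arms. MTX rats had received an injection of methotrexate into the peritoneum, and PLA rats one of sterile saline, which was repeated weekly in the rats kept to 34 days. Blood was drawn 1 hour after the start of therapy and the rat was then sacrificed, so no animal was followed over time. The sources used here do not give ages. The other groups used below are CIA rats before any therapy, the MTX and PLA rats at 34 days, and the remaining arms, which enter the fit. Those arms are healthy rats (NOCIA), rats with needle stimulation (MS) and rats under isoflurane with no other therapy (ANE).

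Methotrexate is a folate analogue that enters cells through the reduced folate carrier and is held there as polyglutamates. As polyglutamates it inhibits thymidylate synthase and the transformylase Atic of purine synthesis. Inhibition of Atic is held to raise extracellular adenosine, which acts on receptors of leukocytes and dampens inflammation, and the drug at low dose is a standard treatment of rheumatoid arthritis. An injection, handling and anaesthesia are themselves stimuli that blood cells respond to within an hour, mainly through immediate early genes and cytokine genes.

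All values are RMA log2 levels, so that a difference of 1 is 2-fold. Differences are MTX minus PLA with the standard error (SE) of limma, fitted over the 24 arrays in 12 groups, with n = 2 arrays per group. The 2 PLA arrays were less alike than the 2 MTX arrays. Taken over probe sets, the difference between replicates 1 and 2 had an SD of 0.494 in PLA and 0.267 in MTX. Between the PLA arrays 1054 probe sets differed by more than 2-fold, and between the MTX arrays 157 did. PLA replicate 2 stood apart along the first principal component (45.8% of the variance), at 39.5 against -15.88 in PLA replicate 1 and -17.77 and -39.42 in the MTX arrays. The Platelet marker list (25 genes) had a mean centred level, each gene taken relative to its mean over 24 arrays, of 0.88 in PLA replicate 2 and -0.21 in replicate 1. It was 0.16 and -0.56 in the MTX arrays. For this reason, results below are also given against each PLA array alone, in fits that assume the lone array to vary like the other groups.

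Markers of mononuclear cells were present in the 4 arrays, with Cd2 of T cells between 9.18 and 10.75, Cd79b of B cells between 8.13 and 9.77 and the monocyte receptor Cd14 between 10.51 and 11.80. Transcripts of other blood cells were present too. The platelet chemokine Pf4 lay between 14.30 and 14.61 and haemoglobin Hbb between 14.76 and 14.86, near the top of the deposited range of 2.18 to 15.02. S100a9, from a list of neutrophil markers, lay between 12.69 and 13.56, and which cells it came from was not tested. As a gauge of RNA integrity, the 3' probe set of Gapdh exceeded its 5' probe set by 0.04 to 0.14 over the 4 arrays, and that of Actb by 0.47 to 0.53. In bulk samples, fewer cells of a type and less RNA per cell cannot be told apart.

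No probe set differed between MTX and PLA at 1 hour at a Benjamini-Hochberg adjusted p under 0.05 in limma, and the smallest adjusted p was 0.38. Of 20690 probe sets tested, 1523 (7.36%) had an unadjusted p under 0.05, 959 (4.64%) of them higher in MTX and 564 (2.73%) lower. The study's thresholds, an unadjusted p under 0.05 with a fold change over 2, were passed by 222 (1.07%), of which 161 (0.778%) were higher and 61 (0.295%) lower. The study also removed genes with an absent detection call in any array compared, a step not applied here. The same comparison at 34 days had 33 (0.159%) past those thresholds and 153 (0.739%) at the p alone. The share of higher among the 222 was 72.5%, and after quantile normalization of the arrays it was 60.2%. Against PLA replicate 1 alone 158 passed, 76 higher and 82 lower. Against PLA replicate 2 alone 668 passed, 567 higher and 101 lower, and 2 probe sets had an adjusted p under 0.05. One of these was Hpgds and the other has no gene symbol here. Without MTX replicate 2, 115 passed. The values below are therefore given without a call, and a statement that a gene lay higher or lower describes these 4 arrays.

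**Figure D1:**
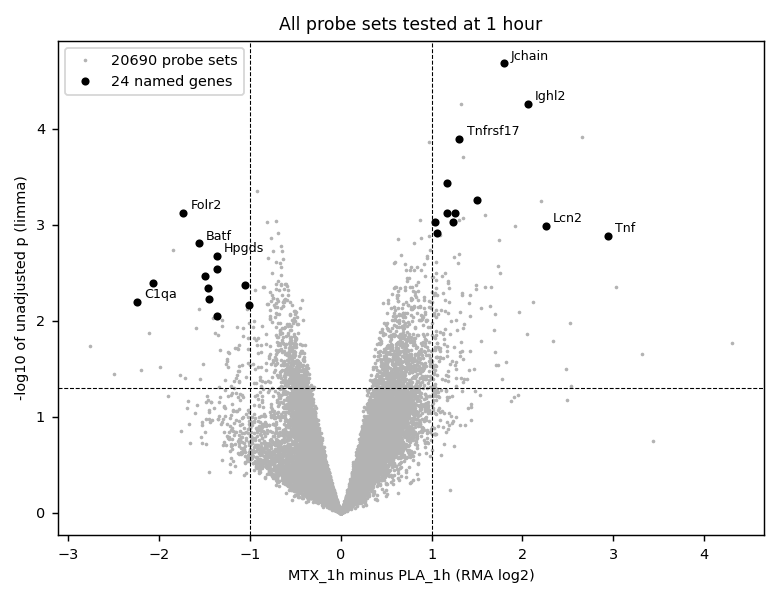
Each point is 1 of 20690 probe sets, with the MTX minus PLA difference at 1 hour (RMA log2) on the x axis and -log10 of the unadjusted limma p on the y axis. Dashed lines mark a fold change of 2 and a p of 0.05, and black points are the 24 named genes. Points past both thresholds are more numerous on the right (161) than on the left (61), with Jchain at the top and Tnf farthest right among the named genes.

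Jchain, Ighl2 and Tnfrsf17, genes of antibody-secreting cells, had the smallest p-values of the named genes. Jchain, the joining chain of secreted IgA and IgM, lay at 10.47 and 10.25 in the MTX arrays and at 8.99 and 8.15 in the PLA arrays. The difference was 1.79 ± 0.30 (SE), a 3.47-fold higher level, with an adjusted p of 0.38. The CIA baseline arrays lay at 10.44 and 10.03, so the MTX arrays were close to rats before therapy and the PLA arrays were low. Over the other 20 arrays Jchain ran from 8.10 to 10.44. Its second probe set differed by 1.33. Ighl2, an immunoglobulin heavy chain transcript, lay at 12.05 and 11.93 in MTX and at 10.47 and 9.40 in PLA, a difference of 2.06 ± 0.38 with an adjusted p of 0.38. Immunoglobulin probe sets can bind transcripts of several near-identical genes.

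Tnfrsf17 encodes BCMA, a survival receptor of plasma cells. It lay at 6.78 and 6.74 in MTX and at 5.67 and 5.25 in PLA. Mzb1, a chaperone of the endoplasmic reticulum in antibody-secreting cells, lay at 9.11 and 9.14 against 8.38 and 7.39. Txndc5, a disulfide isomerase of that compartment, lay at 8.60 and 8.72 against 8.20 and 7.80. In all 3 genes the groups did not overlap, and the difference was 1.31 ± 0.26 for Tnfrsf17, 1.24 ± 0.30 for Mzb1 and 0.66 ± 0.18 for Txndc5. Of the 7 measured genes of the Plasma cell list, 4 were higher at an unadjusted p under 0.05, against 3.77% of all genes, and none was lower. This list and those below were chosen with earlier results of these data known. Their counts beside those of all genes are therefore descriptions and not tests. The groups lay apart upward in 5 of 7, against 35.8% of all genes. Xbp1 (-0.10) and Sdc1 (-0.02), both central to the plasma cell state, did not follow. The list's median difference was 0.66, and 0.57 and 0.86 against PLA replicate 1 and replicate 2 alone, beside 0.08 over all 11057 genes.

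Among 11 B cell genes, all had a difference above 0, as did 57.7% of all genes, and 10 lay apart upward, against 35.8% of all genes. Of the 11, 5 were higher at an unadjusted p under 0.05, against 3.77% of all genes. These were Fcrla, an Fc receptor-like protein inside B cells, Cd79b, the signalling chain of the B cell receptor, Fcer2 (CD23), the coactivator Pou2af1 and the kinase Blk. Fcrla lay at 9.27 and 9.46 in MTX and at 8.33 and 7.90 in PLA (1.25 ± 0.30). Cd79b lay at 9.66 and 9.77 against 8.92 and 8.13 (1.19 ± 0.36). PLA replicate 2 was the lowest of the 4 arrays in each of these 5 genes. The median of the list was 0.66, but 0.28 against PLA replicate 1 alone and 1.10 against replicate 2 alone. Against replicate 1 alone 1 of the 11 genes had an unadjusted p under 0.05, whereas 4 of the 7 plasma cell genes still did.

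**Figure D2:**
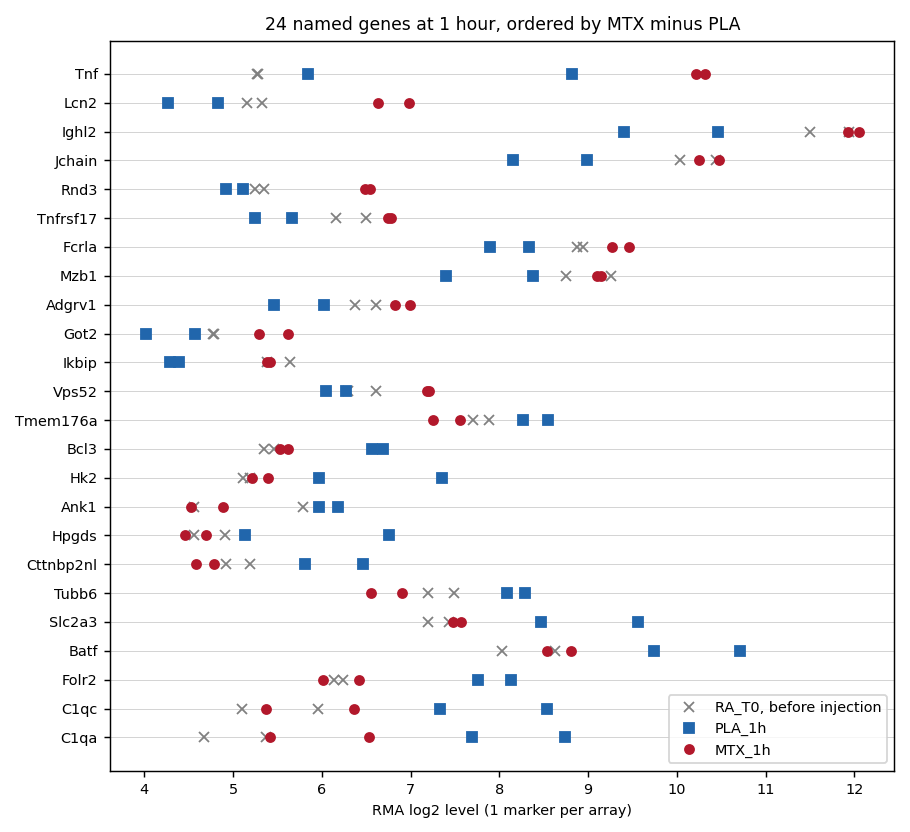
RMA log2 levels (x axis) of the 24 named genes, ordered by the MTX minus PLA difference, with 1 marker per array for MTX (circles), PLA (squares) and CIA baseline (crosses). The groups do not overlap in any gene, which the choice of the genes fixed. For Jchain, Ighl2 and Mzb1 the baseline crosses lie near MTX, and for Tnf and Lcn2 they lie nearer PLA replicate 1 than MTX.

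Transcripts of cytotoxic lymphocytes also lay higher in MTX, and here the 2 PLA arrays were alike. Klre1, a receptor of natural killer (NK) cells, lay at 9.31 and 9.56 in MTX and at 7.62 and 7.86 in PLA, a difference of 1.70 ± 0.66 (3.25-fold). Klrc2, another NK receptor, lay at 7.74 and 7.81 against 6.62 and 6.68 (1.13 ± 0.45). Prf1, the pore-forming protein perforin, lay at 12.71 and 12.89 against 11.74 and 11.55 (1.16 ± 0.55). The CIA baseline arrays were near MTX for all 3, at 9.43 and 9.42 for Klre1, 7.49 and 7.45 for Klrc2 and 12.48 and 12.74 for Prf1. Of 19 genes in the NK and cytotoxic list, 15 lay apart upward and 1, Klrk1 (-0.23), downward, against 35.8% and 19.8% of all genes. Klre1 and Klrc2 were the 2 of 19 (10.5%) with an unadjusted p under 0.05, beside 3.77% of all genes higher at it. The list's median was 0.86, and 0.89 and 0.78 against either PLA array alone. At 34 days the median was -0.90, with Klre1 at -1.45, so the list lay on opposite sides at the 2 times. The difference between the 34-day and the 1-hour difference was -3.15 ± 0.94 for Klre1 and -2.30 ± 0.64 for Klrc2, with an adjusted p of 0.85 for both.

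T cell genes were higher by less. The surface protein Cd2 lay at 10.52 and 10.75 in MTX and at 9.18 and 9.93 in PLA (1.08 ± 0.58), and the receptor kinase Zap70 at 10.98 and 11.06 against 10.31 and 10.23 (0.74 ± 0.43). Of 21 T cell genes 16 lay apart upward, against 35.8% of all genes, but none had an unadjusted p under 0.05. Their median was 0.55 (0.38 and 0.74 against either PLA array). Cd4 (-0.11), Cd28 (-0.05) and Icos (0.05) were near 0, and Trat1, an adaptor of the T cell receptor complex, was the only list member apart downward (-1.11).

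**Figure D3:**
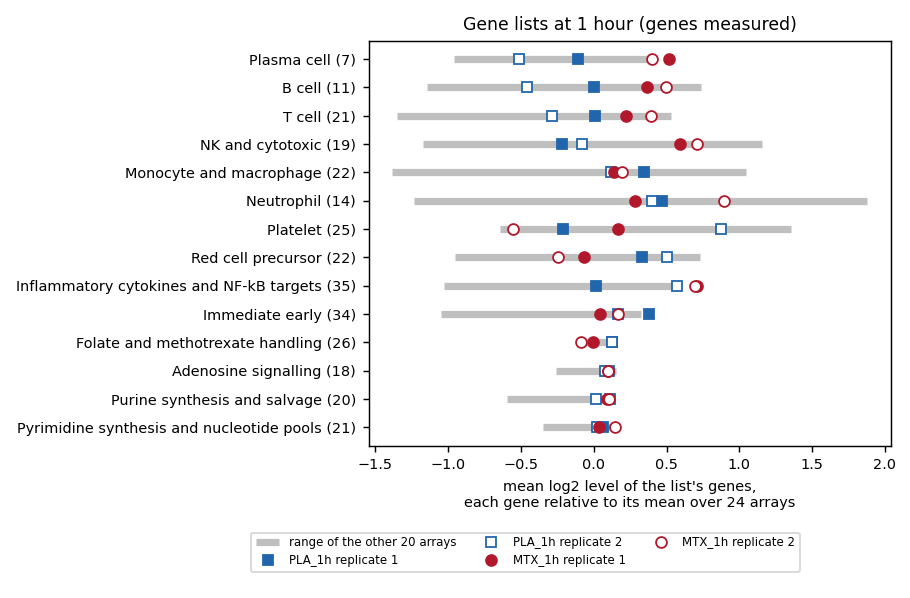
Mean log2 level of the genes of 14 lists in each of the 4 arrays (x axis, each gene relative to its mean over 24 arrays), with the number of genes measured after the name and the range of the other 20 arrays as a grey bar. MTX (circles) lies right of PLA (squares) in the Plasma cell, B cell, T cell and NK lists and left of it in the Red cell precursor list. In the Platelet list the 2 arrays of each group lie far apart.

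Among cytokine genes that answer to NF-kB, the one most different by size was Tnf, tumour necrosis factor, the target of a main class of antirheumatic drugs. It lay at 10.22 and 10.32 in MTX and at 5.84 and 8.82 in PLA, and at 5.28 and 5.27 in CIA rats before therapy. MTX thus held the highest levels of the 24 arrays, above the other 1-hour arrays of MS (8.60 and 9.67), NOCIA (9.19 and 6.86) and ANE (6.76 and 7.98). The difference from PLA was 2.94 ± 0.75 (7.67-fold, adjusted p = 0.63), and it was 4.43 against PLA replicate 1 and 1.45 against replicate 2. A second, dimmer Tnf probe set differed by only 0.38. Ccrl2, an atypical receptor that binds the attractant chemerin, lay at 11.23 and 11.28 in MTX, 8.09 and 9.75 in PLA and 7.03 and 6.85 at baseline (2.34 ± 0.87). Il10, an anti-inflammatory cytokine, lay at 7.47 and 8.27 in MTX and at 6.29 and 6.37 in PLA (1.54 ± 0.57).

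Il1a, the cell-associated form of interleukin 1, lay at 5.32 and 5.43 in MTX and at 4.14 and 4.67 in PLA, below the array medians of 5.49 to 5.58. Its difference was 0.97 ± 0.19 (adjusted p = 0.47). Il1b, the secreted form, lay at 11.82 and 12.33 against 10.74 and 11.81, a difference of 0.80 with an SE of 1.04. Ptgs2, the inducible cyclooxygenase, lay at 8.0 and 8.23 in MTX, but at 5.00 in PLA replicate 1 and 7.49 in replicate 2 (1.87 ± 0.95). The interferon-induced chemokine Cxcl10 lay at 7.98 and 8.45 against 6.67 and 7.23 (1.26 ± 0.72). In Tnf, Ccrl2, Ptgs2 and Il1b, PLA replicate 2 lay between replicate 1 and the MTX arrays.

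Of the 35 measured cytokine and NF-kB target genes, 4 were higher at an unadjusted p under 0.05 (Tnf, Ccrl2, Il10 and Il1a) and none lower, beside 3.77% and 2.44% of all genes. The groups lay apart upward in 17 and downward in 5, beside 35.8% and 19.8% of all genes. Among the 5 were the chemokine Ccl4 (-0.61), the inhibitor of apoptosis Birc3 (-0.56) and the subunit Relb (-0.41). The median was 0.31 and was 0.33 and 0.09 against either PLA array. A further fit left out PLA replicate 2 and the 3 arrays of other groups that stood apart in the same way, as seen in these data. Its differences were 4.43 for Tnf, 3.17 for Ccrl2, 1.24 for Il1a and 1.52 for the caspase-8 regulator Cflar. They were -2.05 for Hk2, -1.89 for Gadd45g and 1.2 for RGD1562465. That fit compares the 2 MTX arrays with PLA replicate 1 alone. The 3 other arrays enter only the pooled spread, so the differences do not depend on them.

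**Figure D4:**
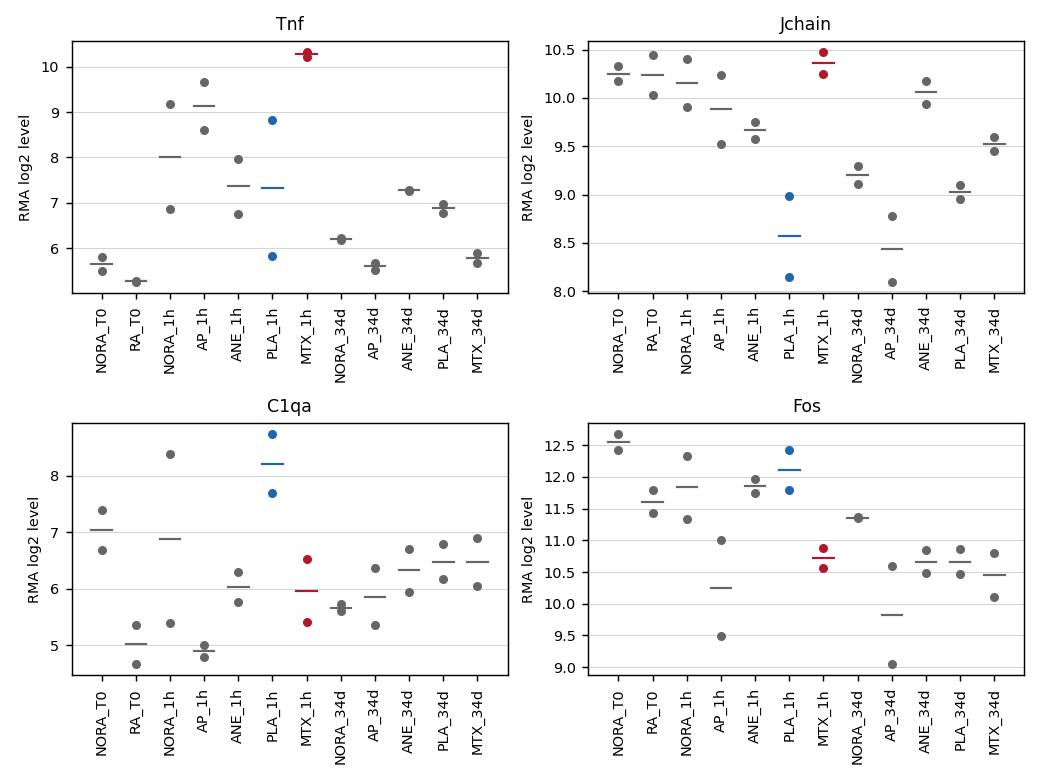
RMA log2 levels (y axis) of Tnf, Jchain, C1qa and Fos in all 12 groups (x axis, group names as in the sample titles with RA for CIA, NORA for NOCIA and AP for MS), with a point per array and a bar at the group mean. Tnf is highest in MTX at 1 hour, Jchain is low in PLA at 1 hour, and C1qa and Fos are higher in PLA than in MTX at 1 hour.

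The 250 bases before the start of transcription are shown for Tnf and Il1a, as cytokine genes higher in MTX, and for Zfp36, as an immediate early gene lower in MTX. They are from RefSeq (GRCr8), on the gene's strand and 5′ to 3′, and 18 of the 24 named genes had an entry in that table. Capitals mark matches on either strand to TATAAA, to the AP-1 motif TGANTCA and to the CArG box, which is bound by serum response factor. Among 33469 windows of this length, 12.9% held TATAAA, 6.34% TGANTCA and 1.5% a CArG box, and no match overlapped another here.
Tnf, chr20:3626435-3626684, plus strand: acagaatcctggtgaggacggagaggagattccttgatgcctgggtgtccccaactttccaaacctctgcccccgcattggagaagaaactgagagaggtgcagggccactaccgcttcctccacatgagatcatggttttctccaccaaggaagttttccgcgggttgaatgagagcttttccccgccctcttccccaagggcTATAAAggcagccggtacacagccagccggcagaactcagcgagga
Il1a, chr3:136990018-136990267, minus strand: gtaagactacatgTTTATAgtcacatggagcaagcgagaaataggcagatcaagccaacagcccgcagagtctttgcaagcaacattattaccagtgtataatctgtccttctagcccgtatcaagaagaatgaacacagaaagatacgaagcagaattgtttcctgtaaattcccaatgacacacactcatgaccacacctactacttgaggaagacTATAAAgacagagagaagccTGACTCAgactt
Zfp36, chr1:92799109-92799358, minus strand: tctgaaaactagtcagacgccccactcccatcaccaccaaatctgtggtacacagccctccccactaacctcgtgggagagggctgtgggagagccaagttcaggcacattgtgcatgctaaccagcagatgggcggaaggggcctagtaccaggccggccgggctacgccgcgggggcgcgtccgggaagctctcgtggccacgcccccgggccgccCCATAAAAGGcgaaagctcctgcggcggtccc
TATAAA ended 41 bases before the start of Tnf and 27 bases before that of Il1a, with a second match on the other strand of Il1a. TGANTCA lay 6 to 12 bases before the start of Il1a, and the CArG box 23 to 32 bases before that of Zfp36. These are matches of letters and were not tested as sites.

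Several immediate early genes, which cells switch on within minutes of a stimulus, lay lower in MTX, first among them Fos and Jun. Fos lay at 10.57 and 10.89 in MTX and at 12.43 and 11.79 in PLA, against 11.80 and 11.43 at baseline, a difference of -1.39 ± 0.50 (-0.56 at a dimmer probe set). Jun, its partner in AP-1, lay at 9.55 and 9.83 against 11.41 and 10.66 (-1.35 ± 0.49). The groups of both genes did not overlap, and the MTX arrays lay below the CIA baseline as well.

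Zfp36, which binds AU-rich elements of cytokine transcripts such as that of Tnf and speeds their decay, lay at 9.17 and 9.24 in MTX and at 10.50 and 9.83 in PLA (-0.96 ± 0.40). Fosl2, also of the Fos family, differed by -0.75 ± 0.33 and Egr2 by -0.47. In the other direction, the nuclear protein Csrnp1 lay at 10.02 and 10.34 in MTX and at 9.28 and 9.52 in PLA (0.78 ± 0.33). Of 34 measured genes 1 was higher and 5 were lower at an unadjusted p under 0.05, against 3.77% and 2.44% of all genes. Egr1 (0.02), Ier2 (0.00), Junb (-0.27) and Dusp1 (-0.19) were small in difference. The list's median was -0.14, and it changed sign with the PLA array, from -0.24 against replicate 1 to 0.02 against replicate 2. Against replicate 2 alone, no member had an unadjusted p under 0.05.

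The genes of the 3 chains of complement C1q, which macrophages make, all lay lower in MTX. C1qa lay at 6.53 and 5.41 in MTX and at 8.74 and 7.69 in PLA, a difference of -2.24 ± 0.71 (4.73-fold lower, adjusted p = 0.63). C1qb differed by -2.11 ± 0.76 and C1qc by -2.07 ± 0.61. CIA rats before therapy were low in C1qa, at 5.37 and 4.67, so that the PLA arrays stood above both MTX and baseline. One NOCIA array at 1 hour reached 8.38, which is within the PLA range.

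Folr2, the folate receptor beta of macrophages, lay at 6.41 and 6.02 in MTX and at 8.13 and 7.76 in PLA, a difference of -1.73 ± 0.41. Baseline rats were at 6.14 and 6.24, and the PLA arrays exceeded all other 20 arrays, which reached 7.61. The lectin Clec10a of macrophages and dendritic cells differed by -1.18 ± 0.71 and Tmem176a, a membrane protein of myeloid cells, by -1.01 ± 0.32. Hpgds, a prostaglandin D synthase, lay at 4.69 and 4.46 in MTX, and at 5.13 and 6.76 in PLA, so that PLA replicate 2 made most of its difference of -1.37 ± 0.37. The Monocyte and macrophage list had a median of -0.06 (-0.20 and -0.01 against either PLA array), with Csf1r at -0.05, Adgre1 at -0.01 and Lyz2 at -0.15. Of its 22 genes 7 lay apart downward and 3 upward, beside 19.8% and 35.8% of all genes. Cd14 differed by 0.84 ± 0.96. Only 1 gene of the list (4.55%) had an unadjusted p under 0.05, beside 3.77% of all genes higher at it. It was Fcgr3a, a low-affinity IgG receptor that NK cells carry too. Fcgr3a lay at 10.60 and 10.44 in MTX and at 9.19 and 8.45 in PLA (1.70 ± 0.56).

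Genes of the drug's own pathway differed little. Of 26 measured genes of folate metabolism and methotrexate handling, none was higher and 2 were lower at an unadjusted p under 0.05, against 2.44% of all genes. The 2 were both folate receptors, Folr2 as above and Folr1, which lay at 5.01 and 4.74 in MTX and at 5.51 and 5.60 in PLA (-0.67 ± 0.25), around or below the array medians. The median of the list was -0.07. Slc19a1, the reduced folate carrier through which the drug enters, lay at 6.37 and 6.07 in MTX and at 6.28 and 6.32 in PLA (-0.08 ± 0.18). Fpgs, which adds the glutamates that retain the drug, lay at 5.83 and 5.96 against 6.16 and 6.01 (-0.19 ± 0.15).

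Among direct targets, thymidylate synthase Tyms lay at 4.05 and 4.41 in MTX and 4.37 and 4.85 in PLA (-0.38 ± 0.35), and the groups overlapped. Atic lay at 9.34 and 9.50 against 9.64 and 9.13, a difference of 0.03 ± 0.32, and Gart, the other transformylase of purine synthesis, differed by 0.29 ± 0.29 (0.56 at a dimmer probe set). The signs of Slc19a1, Atic and Gart depended on the arrays kept. Abcc4, an efflux pump for methotrexate that platelets also carry, lay at 6.73 and 6.62 in MTX, 7.02 in PLA replicate 1 and 8.13 in replicate 2 (-0.90 ± 0.73). Its high value was in the array with the high platelet list, and the part of platelets in it was not tested.

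Purine synthesis and salvage genes had a median of 0.14 over 20 genes with none at an unadjusted p under 0.05 in either direction. Ppat, the first committed enzyme of purine synthesis, lay at 6.48 and 6.21 in MTX and at 5.78 and 5.55 in PLA (0.68 ± 0.33). In pyrimidine synthesis and nucleotide pools, 1 of 21 genes (4.76%) was higher at that threshold, near the 3.77% of all genes. It was the dCMP deaminase Dctd, which feeds thymidylate synthase (0.61 ± 0.23). Tk1, the salvage kinase for thymidine, lay at 7.95 and 8.10 in MTX and at 9.13 and 9.17 in PLA (-1.12 ± 0.66), and at 9.43 and 7.50 in the 2 baseline rats, which spanned both groups. The other Tk1 probe sets, both dimmer, differed by 0.15 and -0.13. The medians, 0.14 in both lists, stood beside 0.08 over all genes, and after quantile normalization that of the purine list was -0.02.

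Adenosine genes, 18 in number, had a median of -0.03 whose sign changed with the arrays kept. Of the 18, 2 were higher and 1 was lower at an unadjusted p under 0.05, beside 3.77% and 2.44% of all genes. Against PLA replicate 1 alone the 2 higher became 0, and against replicate 2 alone the 1 lower became 0. Nt5e (CD73), which makes adenosine from AMP, lay at 8.26 and 8.39 in MTX and at 7.93 and 7.51 in PLA (0.60 ± 0.27). Dpp4 (CD26), which anchors adenosine deaminase at the cell surface, differed by 0.78 ± 0.31 (0.37 at a dimmer probe set). Enpp3, an ectonucleotidase of basophils and mast cells, differed by -1.0 ± 0.41. At 34 days the difference of Nt5e was -0.66 and that of Enpp3 -0.01. The adenosine deaminase Ada lay at 8.78 and 8.94 against 8.49 and 8.24 (0.50 ± 0.39). The receptor Adora2a lay at 8.49 and 8.87 against 8.56 and 8.42, with overlapping groups (0.19 ± 0.36).

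Neutrophil transcripts went both ways. Lcn2, the iron-sequestering lipocalin of secondary granules, lay at 6.64 and 6.98 in MTX and at 4.27 and 4.83 in PLA, a difference of 2.26 ± 0.56 (4.78-fold). The defensin RatNP-3b differed by 2.49 ± 1.26, but it lay at 9.04 in MTX replicate 2 and at 5.11 in replicate 1, close to PLA (4.64 and 4.54). The alarmins S100a8 (-0.90 ± 0.96) and S100a9 (-0.60 ± 0.84) were lower in MTX than in either PLA array, with SEs as large as the difference. S100a8 lay at 10.99 and 11.37 against 12.18 and 11.97. Of 14 genes 4 lay apart upward (Lcn2, RatNP-3b, Np4 and Camp) and 7 downward, beside 35.8% and 19.8% of all genes. The median was -0.42, and -0.65 and -0.16 against PLA replicate 1 and replicate 2 alone. Lcn2 was the 1 gene of 14 (7.14%) with an unadjusted p under 0.05, beside 3.77% of all genes higher at it.

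Red cell precursor genes were lower in MTX against both PLA arrays. Slc4a1, the anion exchanger band 3, lay at 11.21 and 10.94 in MTX and at 12.30 and 12.02 in PLA (-1.08 ± 0.74), and the membrane skeleton protein Epb42 at 7.83 and 8.01 against 9.24 and 9.29 (-1.35 ± 0.76). The baseline rats were far apart themselves, at 12.12 and 10.23 for Slc4a1. Of 22 genes 18 lay apart downward, against 19.8% of all genes, and 2 upward, the iron importer Tfrc (0.56) and the haem enzyme Cpox (1.08 ± 0.41). At an unadjusted p under 0.05, 1 was higher (Cpox) and 1 lower (Gypc, -1.05), beside 3.77% and 2.44% of all genes. The median of -0.71 was -0.66 and -0.71 against either PLA array.

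Platelet genes depended on the PLA array. Their median was -0.59 over 25 genes, 0.04 against PLA replicate 1 and -1.10 against replicate 2. The ATP-gated channel P2rx1 lay at 9.72 and 8.89 in MTX, 9.84 in PLA replicate 1 and 11.39 in replicate 2. Pf4, which was close to the top of the scale, lay at 14.50 and 14.30 in MTX and at 14.38 and 14.61 in PLA (-0.09 ± 0.16). Rasgrp2, an exchange factor of platelets and lymphocytes, was the 1 member of 25 at an unadjusted p under 0.05, beside 3.77% of all genes higher at it. It differed by 0.48 ± 0.20, but by -0.21 at a second probe set almost as bright.

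**Figure D5:**
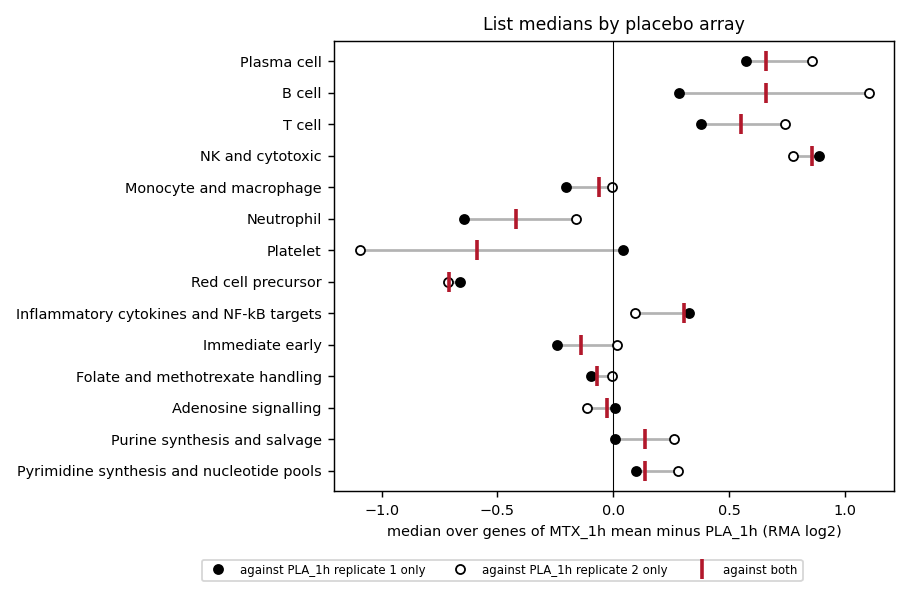
Median over the genes of each of 14 lists of the MTX mean minus PLA (RMA log2, x axis), against PLA replicate 1 alone (filled), replicate 2 alone (open) and both (red bar). The NK and Red cell precursor medians hardly depend on the array (0.89 and 0.78, -0.66 and -0.71), whereas the Platelet median moves from 0.04 to -1.10.

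Other named genes lower in MTX were Batf, an AP-1 family factor of lymphocytes, at 8.80 and 8.53 against 10.72 and 9.75 in PLA (-1.56 ± 0.41), and Bcl3, a nuclear cofactor of NF-kB (-1.06 ± 0.32). Among them were 2 genes of glucose use. The hexokinase Hk2 lay at 5.39 and 5.22 in MTX, 7.36 in PLA replicate 1 and 5.97 in replicate 2 (-1.36 ± 0.39). The glucose transporter Slc2a3 lay at 7.47 and 7.56 in MTX, 8.47 in PLA replicate 1 and 9.57 in replicate 2 (-1.5 ± 0.43). MTX arrays of both genes were near the baseline rats, at 5.11 and 5.19 for Hk2 and 7.43 and 7.20 for Slc2a3. The tubulin Tubb6 (-1.46 ± 0.44), the cortactin-binding protein Cttnbp2nl (-1.45 ± 0.46) and the red cell ankyrin Ank1 (-1.37 ± 0.46, but -0.61 at its brightest probe set) complete the lower genes.

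Higher in MTX besides those above were Rnd3, a small GTP-binding protein, at 6.54 and 6.48 against 5.12 and 4.91 in PLA (1.5 ± 0.35), and the receptor Adgrv1 (1.17 ± 0.28). Vps52, a subunit of a vesicle tethering complex, differed by 1.04 ± 0.26 and Ikbip, named for its interaction with a kinase of the NF-kB pathway, by 1.06 ± 0.27. The mitochondrial aspartate aminotransferase Got2 differed by 1.16 ± 0.26 at a dim probe set and by 0.45 at the brighter one. The adjusted p of each of the named genes was 0.38, 0.47 or 0.63.

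Among stress and clock genes, metallothionein Mt2A lay at 10.14 and 9.72 in MTX and at 11.79 and 10.75 in PLA (-1.34 ± 0.63). Ddit3 (CHOP), a factor of the unfolded protein response, lay at 8.30 and 8.43 against 9.23 and 9.34 (-0.92 ± 0.35), and Gadd45g, a stress sensor, differed by -1.09 ± 0.45 (-1.89 against PLA replicate 1 and -0.28 against replicate 2). The clock repressor Per2 lay at 7.0 and 6.84 in MTX and at 7.50 and 7.70 in PLA (-0.69 ± 0.17), but a second, dimmer probe set differed by -0.018. The clock activator Rora lay at 7.22 and 7.43 against 6.5 and 5.98 (1.08 ± 0.44). Hours of sampling were not given in the sources used here. Of 23 oxidative stress genes 14 lay apart downward, against 19.8% of all genes. At an unadjusted p under 0.05, 2 were lower, Mt2A and Mt1, beside 2.44% of all genes. The median of the list was -0.35 and was -0.24 and -0.34 against either PLA array.

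The MTX minus PLA difference at 34 days was set against that at 1 hour as the difference between the 2 differences. No probe set had an adjusted p under 0.05 (smallest 0.62), 696 (3.36%) had an unadjusted p under 0.05, and 287 (1.39%) passed the study's thresholds. Of these, 237 (1.15%) were lower and 50 (0.242%) higher at 34 days than at 1 hour. The genes named for the lower side were Il1a, Ikbip, Rnd3, Cflar and Bcl2a1. Il1a, at its dim probe set, had the smallest p, with 0.97 at 1 hour and -0.62 at 34 days, a difference of -1.59 ± 0.27 (adjusted p = 0.62). The survival gene Bcl2a1 went from 1.49 to -1.10 (-2.59 ± 0.64) and Cflar from 1.15 to -0.81 (-1.95 ± 0.47), while a second, dimmer Cflar probe set differed by only 0.25 at 1 hour. On the other side, Batf went from -1.56 to 0.95 (2.51 ± 0.58) and the cell cycle inhibitor Cdkn2d from -0.75 to 0.68 (1.43 ± 0.43). Poldip3, Chac1 and Col1a1 were also named for it, with 1.07, 1.05 and 1.32. Poldip3 differed by 0.24 at 1 hour at a brighter probe set, so its sign there was not shared. For Tnf the difference was 2.94 at 1 hour and -1.09 at 34 days.

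Of the 35 lists used here, 3 had been compiled by the study. Early mechanotransduction had a median of -0.21 (-0.02 and -0.29 against PLA replicate 1 and replicate 2 alone) over 36 genes and none at an unadjusted p under 0.05. Early healing had -0.10 (0.01 and -0.17) over 61 genes, with 1 higher and 5 lower. The inflammatory response list had -0.05 over 305 genes, with 13 higher and 4 lower, where 3.77% and 2.44% of all genes were.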

How the data were processed

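Per the labels, mononuclear cells were isolated on a Ficoll gradient, RNA of all rats was extracted in 1 batch and cRNA was hybridised to Affymetrix rat230 2.0 arrays. Per the labels, the authors computed the deposited log2 values with RMA from the package affy (versions not stated). The study's methods describe MAS5 intensities put in log2 instead. The array medians (5.49 to 5.58) are those of normalized log2 values, which does not tell RMA from MAS5, and the labels were followed. RMA normalizes arrays to each other, so levels are relative and abundant transcripts may be compressed. The deposited values did not fully share 1 distribution. A further quantile normalization moved the median difference over the kept probe sets from 0.067 to 0.010.

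Of 31099 probe sets, 57 controls were left out. A single symbol was held by 20826, several by 436 and none by 9780, from the platform annotation with symbols updated through RefSeq. A probe set was kept where 2 or more arrays had it over their own 40th percentile (20690 kept, with 11057 genes). Differences were fitted with limma 3.58.1 in R 4.3.3 (lmFit, eBayes) over 24 arrays with 12 residual degrees of freedom, and the steps were tested on simulated data. For 2 against 2 arrays the smallest two-sided p of an exact permutation test is 0.333, so the spread was pooled over groups.

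Gene lists (35) were described by counts and medians at each gene's probe set with the highest mean. Named were the 12 highest and 12 lowest by the moderated statistic past the study's thresholds with groups that did not overlap, 5 and 5 for the test between times, a set of drug, cytokine and blood cell genes, and list members. The members and lists were chosen with earlier results of these data known. C1qb and RGD1562465 were picked with their values in view. Alternative fits used a replicate block, only the groups compared, array weights, limma-trend, quantile normalization, no filter or one at the 60th percentile, and fewer arrays. Plots used Python and matplotlib.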

Additional observations from a re-analysis of the deposited data

How the results depend on the processing

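With 2 rats per group, and PLA arrays that differed more than MTX arrays, calls depended on the setting. The count of probe sets called at 1 hour, 0, was 2 with only the 4 arrays of the groups compared, 1 with array weights (Jchain, 1.79, adjusted p = 0.026) and 9 without the 4 arrays that stand apart. It ran from 0 to 2 when each of the 4 arrays was left out in turn. The 222 probe sets past the study's thresholds became 372 with only the groups compared, and 115 to 668 with 1 array left out. For the difference between 34 days and 1 hour the 0 calls became 2, 1 and 7 in the first 3 of these settings, and stayed 0 with any array left out. The cause was not tested. Of the 4 arrays that stand apart, chosen from these data, 3 lie outside the groups compared and enter only the pooled spread. The other counts lay within 1.5 times. With the replicate number as a block, 0, 233 and 0 passed. The titles do not say whether the numbers pair the rats. In 25 of 66 pairs of groups same-numbered arrays deviated together (correlation over 0.1), which cannot decide it with 1 such deviation per group. MTX and PLA at 1 hour deviated in opposite ways (-0.462), and with the PLA numbers crossed, a choice made after seeing the data, 0, 258 and 0 passed.

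Of 82 genes followed at 1 hour, 77 kept their direction under all alternatives run. Much of this was fixed in advance. A replicate block, only the groups compared, other filters, limma-trend and array weights leave a probe set's difference unchanged. The fit without the 4 arrays repeats the differences without PLA replicate 2. Leaving 1 array out cannot turn genes with groups that do not overlap, such as the named genes by their choice. Atic was -0.13 with quantile normalization, -0.22 without the 4 arrays, and -0.22 to 0.29 with 1 array left out. Gart was -0.014 without the 4 arrays and -0.014 to 0.60 with 1 left out, and Pf4 0.022, and -0.21 to 0.022. With 1 array left out Slc19a1 ran from -0.23 to 0.071 and Adora2a from -0.0023 to 0.38. Without MTX replicate 2, Atic was -0.048, Pf4 0.0081, Slc19a1 0.071 and Adora2a -0.0023, and without PLA replicate 2 Atic was -0.22, Gart -0.014 and Pf4 0.022. The list medians had 1 sign under all alternatives in 19 of 35 lists, among them Plasma cell (0.50 to 0.95), B cell (0.28 to 1.10), T cell (0.38 to 0.74), NK and cytotoxic (0.78 to 0.89) and Red cell precursor (-0.78 to -0.65). A probe set's level relative to the array, and so to the chosen normalization, is all that these arrays give, and their number limits the precision.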

Other observations

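Lists of housekeeping machinery lay slightly higher in MTX. Of all genes, 57.7% had a difference above 0, with a median of 0.08. All 48 RNA splicing genes had a difference above 0, with a median of 0.36 (0.17 and 0.55 against PLA replicate 1 and replicate 2 alone), and 33 lay apart upward, against 35.8% of all genes. All 32 measured genes of the cytosolic ribosome were above 0 too, with a median of 0.26 (0.06 and 0.45), and 22 lay apart. Respiratory chain genes had a median of 0.21 over 46 genes (0.12 and 0.33). In each of these 3 lists the mean centred level was lowest in PLA replicate 2, at -0.28 for splicing, -0.28 for the ribosome and -0.14 for the respiratory chain. In the other 3 arrays it lay between 0.10 and 0.33 for splicing, 0.07 and 0.19 for the ribosome and 0.01 and 0.19 for the respiratory chain.

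Liver plasma protein transcripts were lower in all 16 measured genes, with a median of -0.45 beside 0.08 over all genes. Of the 16, 11 lay apart downward, against 19.8% of all genes. Alb, the main protein of plasma, lay at 4.53 and 6.63 in MTX and at 6.37 and 8.30 in PLA, so that its groups overlapped. Interferon-stimulated genes differed more between the MTX arrays than between the groups. Their mean centred level was 0.01 and 0.57 in MTX and 0.34 and -0.25 in PLA, with a median difference of 0.28 over 30 genes (0.06 and 0.58 against PLA replicate 1 and replicate 2 alone). Cell cycle genes (median 0.14 over 34, and 0.16 and 0.05 against either PLA array) and heat shock genes (0.24 over 22, and 0.02 and 0.39) each had none higher at an unadjusted p under 0.05, and 0 and 1 lower. Of all genes, 3.77% were higher and 2.44% lower at it.

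The remaining lists are given with their medians against both PLA arrays, then against replicate 1 and replicate 2 alone. MHC class II genes had 0.26 (0.11 and 0.43), but some of their probe sets disagreed. RT1-Bb differed by 0.04 at the probe set used and by 3.44 at another, and RT1-Ba by -0.45 and by 0.70. The tetrahydrobiopterin list had 0.33 (0.05 and 0.57) and the methionine and polyamine cycle 0.13 (0.14 and 0.24). JAK-STAT and feedback genes had 0.11 (0.14 and 0.33) and fasting and lipid metabolism 0.02 (-0.06 and 0.05, so that its sign turned with the PLA array). The sign turned likewise for dendritic cells, 0.10 (0.16 and -0.0043), the circadian clock, 0.10 (-0.07 and 0.19), p53 targets, 0.05 (-0.07 and 0.02), the glucocorticoid response, -0.13 (-0.13 and 0.16), and mast cells and basophils, -0.14 (0.16 and -0.12). Beside them stands the 0.08 of all genes (0.05 and 0.15).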
